A study of Rattus norvegicus with 8 samples.

Results

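The mRNAs of both main glucose transporters of heart muscle were followed in hearts of Sprague Dawley rats. They are Slc2a1 (GLUT1, ENSRNOG00000007284) and Slc2a4 (GLUT4, ENSRNOG00000017226), chosen by gene ID as 2 of the 21549 genes in the deposited tables. Both passed the filter on low counts, as did 14214 genes in all. The labels put 4 rats in chronic hypoxia, a sustained exposure to low oxygen, and 4 in normoxia, all aged 3 months, with 1 heart library for each animal. The labels name no genetic change and no other treatment in either group. Oxygen level, duration, sex and heart chamber are not stated in those labels, so neither the dose of hypoxia nor a difference between the ventricles can be addressed. The tables list IDs without names and the reference matched 0 of the 21549, so the pairing of both IDs with their names came with the choice of genes, and the label heart could not be checked against marker genes.

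Glucose enters cells down its gradient through the facilitative transporters of the SLC2 family. GLUT1 sits in the plasma membrane of most cells, carries basal uptake and is abundant in the fetal heart and in endothelium. GLUT4 is the main form of adult cardiac and skeletal muscle and of fat; much of it is held in intracellular vesicles that insulin, contraction or AMP-activated protein kinase bring to the surface. Slc2a1 is a textbook target of the hypoxia-inducible factors (HIFs), which bind DNA at a short core that reads ACGTG and, with the other purine first, GCGTG. Transcript levels do not show how much of either protein was at the cell surface.

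The Slc2a1 promoter is shown for where these HIF cores lie near the start of the gene. No binding was measured here, and a link between these letters and the level of the transcript was not tested. It comes from RefSeq (GRCr8, chr5:138002272-138002571, + strand), with 250 bases before and 50 from the first base of the gene onward; of the 2 transporters, 1 matched the promoter table. The expression files were made on another build, rn6, and no position was carried between them. Capitals mark the core ACGTG, its variant with the spelling GCGTG (which on the printed strand reads CACGC) and, as a landmark, the TATA box letters TATAAA. Each was searched on both strands.
Slc2a1 promoter: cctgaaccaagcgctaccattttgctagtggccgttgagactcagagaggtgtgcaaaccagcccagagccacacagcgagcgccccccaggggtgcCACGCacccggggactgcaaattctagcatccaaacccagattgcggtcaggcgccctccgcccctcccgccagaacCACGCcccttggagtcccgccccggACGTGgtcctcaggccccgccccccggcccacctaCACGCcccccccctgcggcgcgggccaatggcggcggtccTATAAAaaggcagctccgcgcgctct
The window held the core ACGTG 1 time, 51 bases before the first base of the gene, and its variant GCGTG 3 times on the other strand, 153, 76 and 16 bases before it. TATAAA began 24 bases after it, inside the annotated gene. No match overlapped another (0 overlaps). Of 33469 rat promoters of this length, 19.3% held the first core, 29.7% its variant and 14.2% the TATA letters. Either core occurred in 41.6%, and 3.46% had at least the 4 matches seen here. The window was richer in G and C than most, at 68.3% against a median of 51.7%. These matches describe letters and not sites of binding.

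Library totals ran from 26229304 to 32160710 counts. On the first principal component of log2 CPM (49.0% of variance) the hypoxia libraries lay at 25.4 to 45.5 and the normoxia libraries at −36.2 to −29.6. Along the second (20.9%), a gap separated hypoxia libraries 1 and 2 (−37.9 and −29.8) from hypoxia libraries 3 and 4 (29.3 and 27.9), with normoxia between −1.01 and 8.10, so results are also given without either pair. The pairs were thus chosen from these same data, and fits without a pair are descriptions that add no support. CPM (counts scaled to a common library size) are relative to library sizes scaled by TMM, the trimmed mean of M values. FPKM is the authors' level per length of gene model and per unscaled library total, and it is the scale on which the levels of the genes are compared with each other.

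Slc2a4 was by far the more abundant transporter transcript in every library of both groups. Its level was 67.8, 87.1, 128 and 100.5 FPKM in hypoxia libraries 1 to 4, and 87.4, 72.9, 81.6 and 77.4 FPKM in normoxia libraries 1 to 4. Slc2a1, with a gene model of 2592 bp against 2506 bp, had a level of 3.28, 3.81, 4.24 and 5.41 FPKM in the hypoxia libraries and of 2.75, 3.61, 3.16 and 2.41 FPKM in the normoxia libraries. The lowest Slc2a4 level was thus many times the highest Slc2a1 level. Slc2a4 exceeded 95.4% to 97.8% of the detected genes of each hypoxia library and 96.5% to 96.9% of those of each normoxia library. Slc2a1 lay near the middle, above 50.8% to 64.2% of the detected genes in hypoxia and 46.4% to 51.9% in normoxia. In tissue RNA a change in the share of a cell type and a change in RNA per cell cannot be told apart, and which cells the reads of either gene came from was not measured.

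**Figure D1:**
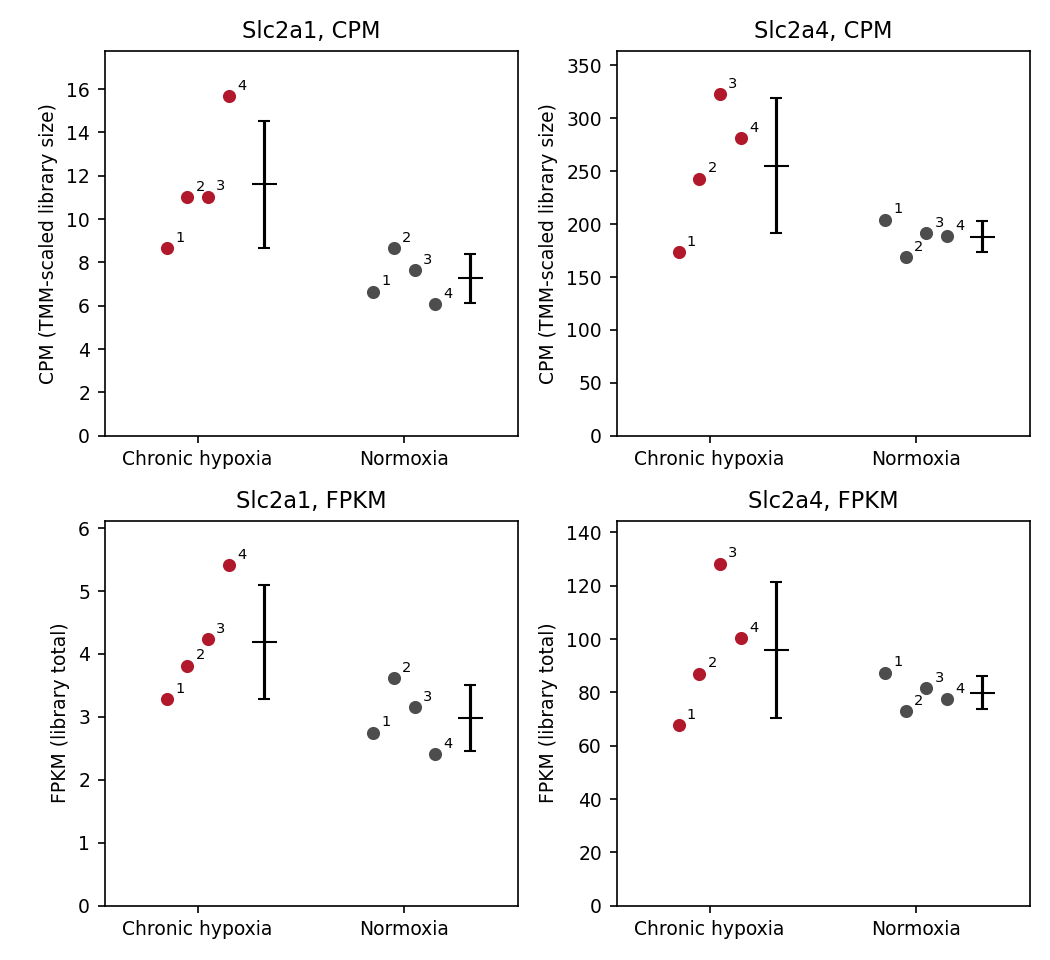
Level of each transporter transcript in the 8 libraries, as CPM on TMM-scaled library sizes (top) and as deposited FPKM (bottom); points are numbered by library, and the bar to their right is the mean with its SD (n = 4). Slc2a1 in hypoxia starts just above the normoxia range in CPM and inside it in FPKM, and Slc2a4 hypoxia library 1 lies within the normoxia range in CPM and below it in FPKM.

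Slc2a1 was higher in the hypoxic hearts. It had 8.66, 11.0, 11.0 and 15.7 CPM in hypoxia libraries 1 to 4, against 6.65, 8.65, 7.66 and 6.08 CPM in normoxia libraries 1 to 4. Hypoxia library 4 was the highest, and the groups were separate by a very small margin, since the lowest hypoxia value was 8.659 CPM and the highest normoxia value 8.655 CPM. On the FPKM scale, hypoxia library 1 at 3.28 FPKM lay below normoxia library 2 at 3.61 FPKM, so the groups overlapped there. The means were 11.6 ± 2.94 CPM in hypoxia and 7.26 ± 1.14 CPM in normoxia (SD, n = 4 each). The rise was 1.60-fold, a log2 fold change of 0.68 with an SE of 0.18 and a 95% interval of 0.27 to 1.08 (edgeR adjusted p = 0.0183, from its quasi-likelihood test with Benjamini-Hochberg adjustment over all genes).

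Such a call was common in these hearts. By the same test 4693 of the 14214 genes (33.0%) were called at an adjusted p under 0.05, with 17.7% higher and 15.3% lower in hypoxia. All 4 hypoxia values lay above all 4 normoxia values in CPM in 17.3% of genes. The log2 fold change of Slc2a1 was above that of 89.5% of genes tested, and its size exceeded that of 82.7%. Among the 1421 genes of like abundance (the fifth of 10 bins), 31.5% were called. When library totals alone set the scale, the median log2 fold change of all genes was −0.17, against 0.01 under TMM, and the share of calls that were higher was 26.9%, against 53.6% under TMM. On that scale, where 37.3% of genes were called, Slc2a1 kept its call, with a log2 fold change of 0.49 (edgeR adjusted p = 0.0480).

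The Slc2a1 call was near the threshold. Of the single libraries, hypoxia library 4 moved the log2 fold change most, to 0.49 without it, and the call was kept (edgeR adjusted p = 0.0391, with 28.3% of genes called). Its adjusted p in edgeR was 0.0528 without normoxia library 1 and 0.0574 without normoxia library 4. The log2 fold changes there were 0.63 and 0.60, and 3713 (25.9%) and 3373 (23.5%) of all genes were called. The call was kept without normoxia library 2 or 3 (edgeR adjusted p = 0.0240 and 0.0418), with 3489 and 3315 genes called. Without hypoxia libraries 3 and 4 the adjusted p of Slc2a1 in edgeR was 0.0664, with a log2 fold change of 0.43. Without hypoxia libraries 1 and 2 it was 0.00375, with 0.87. The shares of all genes called were 37.1% and 40.7%. On log2(FPKM + 1), a scale that rests on unscaled totals and shrinks changes of low genes, limma gave 0.37 with an adjusted p of 0.0555 and called 41.5% of all genes. On log2(FPKM + 0.1), which shrinks them less, limma gave 0.47 with an adjusted p of 0.0544 and called 4883 genes. Why the call was lost on these scales was not tested. The direction was upward in 22 of 22 alternatives, which share the same libraries, and the call held in 16 of them.

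Slc2a4 was higher on average in the hypoxic hearts, by an amount that did not pass the test. It had 173, 243, 323 and 281 CPM in hypoxia libraries 1 to 4, against 204, 169, 191 and 189 CPM in normoxia libraries 1 to 4. Hypoxia libraries 2, 3 and 4 were above every normoxia library, while hypoxia library 1 lay below normoxia libraries 1, 3 and 4, so the groups overlapped. In FPKM, hypoxia libraries 3 and 4 alone exceeded every normoxia library. The means were 255 ± 63.7 CPM in hypoxia and 188 ± 14.6 CPM in normoxia (SD, n = 4 each). The log2 fold change was 0.44 with an SE of 0.17, a ratio of 1.36 (edgeR adjusted p = 0.0675, unadjusted p = 0.0249). Its 95% interval, not adjusted for the number of genes, ran from 0.07 to 0.81, which reaches from a 1.05-fold to a 1.75-fold higher level under TMM scaling.

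Whether Slc2a4 was called depended on the tool and on hypoxia library 1. DESeq2 gave the same log2 fold change of 0.44 with an adjusted p of 0.0357, among 36.5% of genes called. On the same counts limma-voom gave 0.41 with an adjusted p of 0.0890 and called 4654 genes. On log2(FPKM + 1) limma gave 0.23 with an adjusted p of 0.308, among 41.5% of genes called. In edgeR, leaving out hypoxia library 1 raised the log2 fold change from 0.44 to 0.58 (edgeR adjusted p = 0.00526, with 32.3% of genes called). Leaving out hypoxia libraries 1 and 2 raised it to 0.67 (edgeR adjusted p = 5.74e-04, with 40.7% of genes called). Hypoxia libraries 1 and 2 had the lowest Slc2a4 levels in hypoxia. A larger log2 fold change without them follows from that choice and is no added support. Without hypoxia libraries 3 and 4 the log2 fold change was 0.14 (edgeR adjusted p = 0.433, with 37.1% of genes called). With library totals alone it was 0.26 (edgeR adjusted p = 0.237), so about 0.17 of the log2 fold change came with the TMM scaling.

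**Figure D2:**
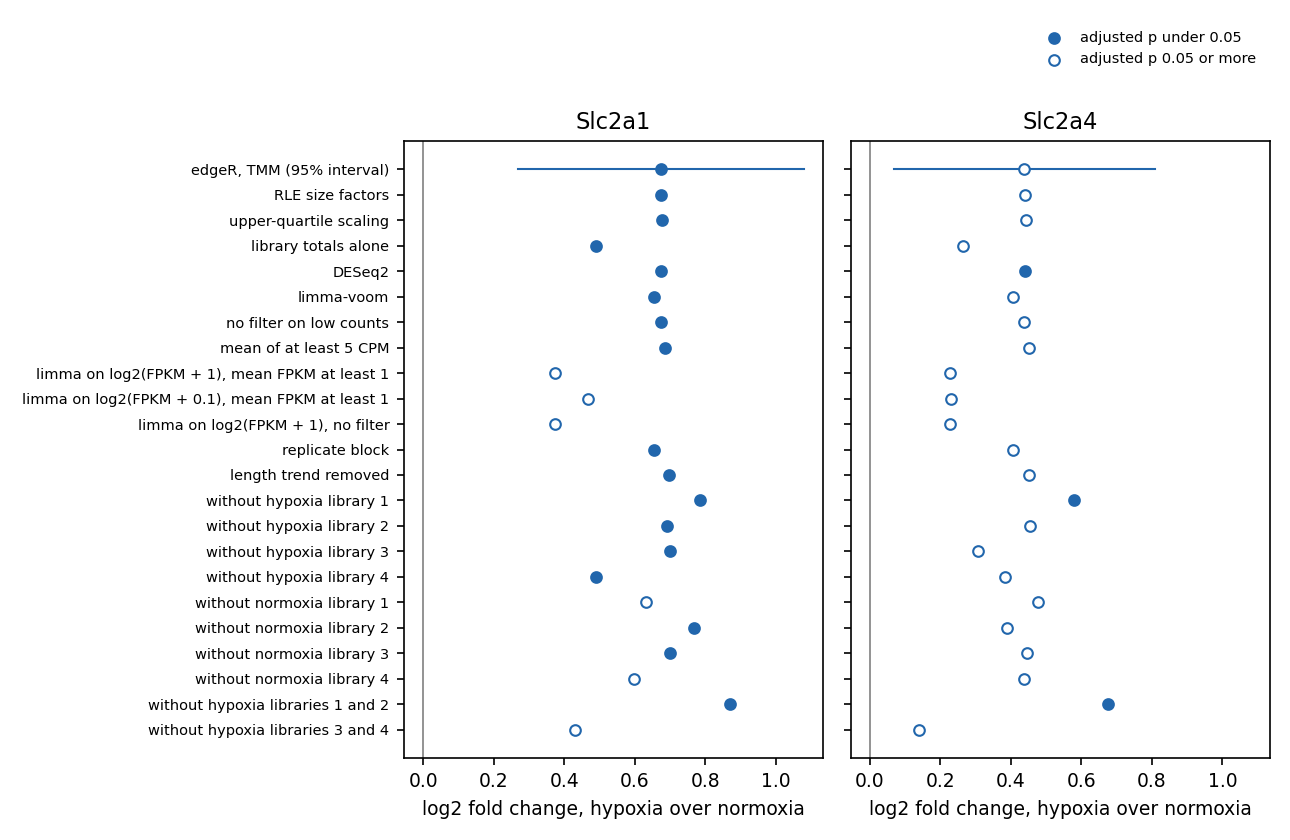
Log2 fold change, hypoxia over normoxia, of each transporter transcript under every alternative fit; filled points have an adjusted p under 0.05 and the line on the top row is the 95% interval. All points lie above 0, from 0.37 to 0.87 for Slc2a1 and from 0.14 to 0.67 for Slc2a4, with 3 of the 22 alternatives filled for Slc2a4.

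**Figure D3:**
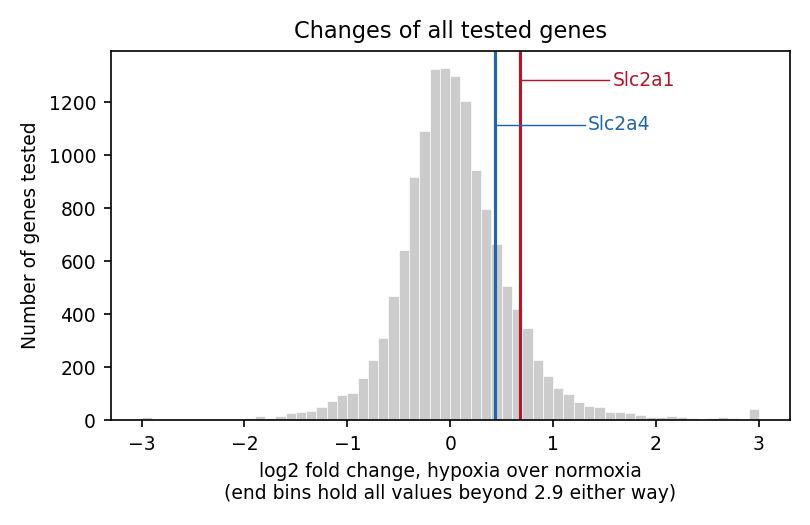
Histogram of the log2 fold changes, hypoxia over normoxia, of the 14214 genes tested, with vertical lines at the 2 transporters. Both lines, at 0.68 for Slc2a1 and 0.44 for Slc2a4, lie on the upper side within the body of the distribution.

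The log2 fold change of Slc2a4 was above that of 81.1% of genes, and its size exceeded that of 66.4%. Slc2a4 belongs to the most abundant of 10 abundance bins, in which 48.2% of 1422 genes were called. The mean gene-model length per count, which abundant genes weigh on most, was 2281 ± 66.1 bp in hypoxia and 2610 ± 15.8 bp in normoxia (SD, n = 4 each). Both transporters fell in the same length bin (2337 to 2748 bp), whose median log2 fold change was −0.01. After each library's trend of log2 CPM on gene-model length was subtracted, a setting under which 27.0% of genes were called, the log2 fold changes were 0.70 for Slc2a1 (edgeR adjusted p = 0.0188) and 0.45 for Slc2a4 (edgeR adjusted p = 0.0667), close to the uncorrected values.

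The balance between both transporters was asked next, since it does not depend on how libraries are scaled. Slc2a4 was 20.7, 22.8, 30.3 and 18.6 times the FPKM of Slc2a1 in hypoxia libraries 1 to 4, against 31.8, 20.2, 25.8 and 32.1 times in normoxia libraries 1 to 4. The groups overlapped widely, and the extremes were hypoxia library 4 at the low end and normoxia library 4 at the high end. The mean ratio was 23.1 ± 5.10 in hypoxia and 27.5 ± 5.64 in normoxia (SD, n = 4 each). The log2 ratio of Slc2a1 to Slc2a4 was −4.50 ± 0.30 in hypoxia and −4.76 ± 0.31 in normoxia (SD, n = 4 each), a difference of 0.25 that did not exceed the spread between animals (two-sided exact permutation p = 0.286). Single libraries moved this difference, which was 0.15 without hypoxia library 4, 0.39 without hypoxia library 3 and 0.39 without normoxia library 2. The smallest p that the 70 assignments of 8 libraries allow is 0.0286. Differences from −0.58 to 0.79 were not rejected at the 95% level by the same exact test, so the data leave room for a relative gain of either transporter. That Slc2a1 passed the test and Slc2a4 did not is therefore no evidence that they responded by different amounts.

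**Figure D4:**
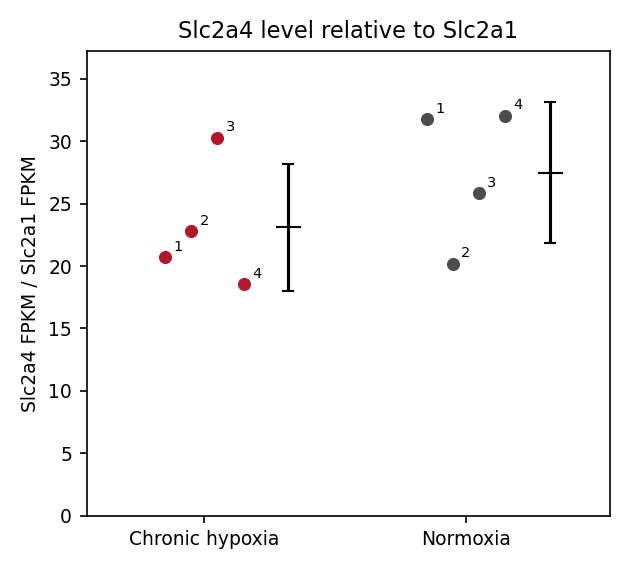
Slc2a4 FPKM divided by Slc2a1 FPKM in each library, numbered points, with the mean and SD of each group to their right (n = 4). The hypoxia libraries span 18.6 to 30.3 and the normoxia libraries 20.2 to 32.1, so the ranges overlap.

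As a share of the counts of both genes, not scaled by length, Slc2a1 made up 4.76%, 4.34%, 3.30% and 5.28% in hypoxia libraries 1 to 4 and 3.15%, 4.87%, 3.85% and 3.13% in normoxia libraries 1 to 4. The 95% Wilson intervals, which cover counting error only, were 2.95% to 3.70% in hypoxia library 3 and 4.82% to 5.78% in hypoxia library 4. Those of normoxia library 4, at 2.71% to 3.60%, and normoxia library 2, at 4.33% to 5.48%, did not overlap either. These are the lowest and highest libraries of each group, and with 1 library per animal, differences between animals and between library preparations cannot be told apart. The Slc2a1 counts, 247 to 437 in hypoxia and 186 to 264 in normoxia, carried a counting error of 4.78% to 7.33% each, against a spread between animals of 25.3% of the mean CPM in hypoxia and 15.6% in normoxia. For Slc2a4, with 4942 to 8432 counts in hypoxia and 5154 to 6855 in normoxia, the counting error was at most 1.42%, against 25.0% in hypoxia and 7.75% in normoxia.

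The hypoxic hearts differed more from each other in Slc2a4 than the normoxic hearts did. The SD of its log2 CPM was 0.39 in hypoxia and 0.11 in normoxia, a ratio of 3.40. This ratio was above that of 81.6% of genes, in a data set where the SD was larger in hypoxia for 78.7% of genes and the median ratio was 1.76. For Slc2a1 the SD was 0.35 in hypoxia and 0.22 in normoxia, a ratio of 1.58, which is below that median. The transcripts did not order the hypoxic hearts in the same way. Hypoxia library 1 was lowest for both, library 4 was highest for Slc2a1, and library 3 was highest for Slc2a4.

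The genes whose log2 CPM followed each transporter most closely over the 8 libraries were sought among 12658 others with a mean of at least 1 CPM. For Slc2a1 the closest was ENSRNOG00000015019 (Pearson's r = 0.986). Its values were 18.6, 21.3, 21.6 and 24.8 CPM in hypoxia libraries 1 to 4 and 17.2, 18.8, 18.6 and 17.0 CPM in normoxia libraries 1 to 4, which repeats the high hypoxia library 4 at a smaller amplitude. For Slc2a4 the closest was ENSRNOG00000001813 (r = 0.991). Its values were 67.1, 82.1, 108 and 97.1 CPM in hypoxia libraries 1 to 4 and 72.8, 65.9, 71.9 and 68.7 CPM in normoxia libraries 1 to 4, with hypoxia library 1 again inside the normoxia range. After each group's mean was subtracted, r was 0.969 for the Slc2a1 pair and 0.985 for the Slc2a4 pair. Among the 12658 other genes with that mean, the other transporter included, an r of at least 0.9 was found with 102 for Slc2a1 and 144 for Slc2a4. These are the extremes of many comparisons over 8 shared libraries and are given as a description.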

How the data were processed

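Heart RNA was extracted with Trizol and sequenced from NEBNext Ultra libraries, per the labels' protocols. The authors deposited raw read counts per Ensembl gene ID and FPKM values for each of 8 libraries. HISAT2 2.1.0, Bowtie2 2.2.3, HTSeq 0.6.0, bcl2fastq and the build rn6 are listed per the submitters' processing notes. For the aligner behind these values, the annotation, strandedness and multi-mapped reads, the setting was not given in the sources used here. Counts shared with near-identical, overlapping or antisense genes therefore cannot be separated.

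Counts were fitted with edgeR 4.0.16 in R 4.3.3 (filterByExpr with a minimum count of 10, TMM, quasi-likelihood test with group as the only term) over 14214 genes, with Benjamini-Hochberg adjustment over all of them and calls at 0.05. SEs and 95% intervals came from the test statistic and its degrees of freedom, and log2 CPM used a prior count of 2. Gene-model lengths were recovered from count, FPKM and library total. The ratio was tested by a two-sided exact permutation test (scipy 1.17.1, numpy 2.4.6, Python 3.11.15), and its interval holds the shifts that this test did not reject. The fit was tested on simulated data with known changes and the same spread in both groups. That setting differs from these data, where most genes spread more in hypoxia, so it does not cover unequal spread. Alternatives used DESeq2 1.42.0 and limma 3.58.1, other scalings and filters, the replicate number as a block, removal of a lowess trend on length (span 0.3) and libraries left out.

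The named genes were the 2 transporters and the genes closest to each by correlation (5 each by the rule, of which 1 each is printed because IDs lack names). The transporters and all lists were chosen with earlier results of these data known. Lists of pathway and cell type marker genes could not be matched to IDs and were not tested. P-values weigh the difference between groups against the spread between libraries, in which animals and library preparations cannot be told apart. All libraries come from this 1 series.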

Additional observations from a re-analysis of the deposited data

How the results depend on the processing

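Direction was kept in 22 of 22 alternatives for each transporter and in 13 of 13 for their ratio, and calls over all genes, 4693 in the reported fit, ranged from 3315 to 5982. All alternatives reuse the same 8 libraries or a part of them, so a shared direction is not repeated evidence. Slc2a1 (log2 fold change 0.68) missed the threshold in limma on log2(FPKM + 1) with or without a filter (0.37, adjusted p = 0.0555 and 0.111), on log2(FPKM + 0.1) (0.47, adjusted p = 0.0544) and in edgeR without hypoxia libraries 3 and 4 (0.43); with 1 library left out it was 0.49 to 0.79 (edgeR adjusted p 0.00816 to 0.0574). Slc2a4 (0.44) passed in DESeq2 (0.44) and without hypoxia libraries 1 and 2 (0.67); with 1 library left out it was 0.31 to 0.58 (edgeR adjusted p 0.00526 to 0.160). The cause of these shifts was not tested. The difference in log2 ratio was 0.15 to 0.39 over its alternatives, with no p where libraries were left out. Same-numbered libraries did not deviate together (r of −0.08 to 0.02, with 0 of 4 normoxia libraries closest to their own number). With the replicate number as a block the log2 fold changes were 0.65 for Slc2a1 (edgeR adjusted p = 0.0394) and 0.41 for Slc2a4 (edgeR adjusted p = 0.113), which changed no call of either, and 3841 genes were called. Alternatives for gene lists were not run because IDs could not be matched to names.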
